A study of Mus musculus with 6 samples.

Results

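The genes described here encode the proteins of the mitochondrial ribosome. They were taken by symbol, as every gene named Mrpl or Mrps followed by a number in the probe annotation, and each was read from its brightest probe set with a single symbol. This gave 77 of the 19937 genes measured, 48 named for the large subunit (Mrpl) and 29 for the small subunit (Mrps). No measured value entered the choice of genes, although the group was proposed with earlier results of these data known.

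RNA came from lineage-depleted (Lin-) hematopoietic cells of C57BL6 background carrying Rosa26rtTA, an allele that makes the doxycycline-dependent transactivator in both groups. In 3 samples the cells received the lentiviral vector pRRL.PPT.Tet.Evi1.IRES.EGFP.pre, which makes the zinc finger transcription factor EVI1 together with EGFP from a doxycycline-inducible promoter, and these are called EVI1. In the other 3 samples they received pRRL.PPT.Tet.EGFP.pre, which makes EGFP alone, and these are called EGFP. Serum-free medium for all cells held SCF, Flt3L and IL-11 at 50 ng/ml each and IL-3 at 20 ng/ml, and cells were transduced 24 h after isolation and given doxycycline (1 µg/ml) after a further 24 h. EGFP-positive cells were sorted 20 h after doxycycline by one label, and RNA was prepared after 24 h by another. The labels name neither the age of the mice nor separate animals or cultures behind the replicates, so p-values measure the spread between these 6 arrays only, which may be technical. The readout was the log2 intensity of Affymetrix probe sets, where a difference of 1 is a change of 2-fold.

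Mitochondria keep their own ribosome, which translates the few respiratory chain subunits encoded in mitochondrial DNA. Its RNA comes from the mitochondrial genome, but all of its proteins are encoded in the nucleus, made in the cytosol and imported. A number of them descend from bacterial ribosomal proteins, and others have no bacterial counterpart and form the outer protein layer that sets this ribosome apart. In blood progenitors, as elsewhere, respiration depends on what it makes.

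Mecom, the gene that encodes EVI1, averaged 6.32 ± 0.16 in the EVI1 arrays and 6.92 ± 0.57 in the EGFP arrays (SD, n = 3 each). Both means lay under the stand-in for background used here, the level that 95 percent of the olfactory receptor genes stay below (6.99 in EVI1 and 6.95 in EGFP). The probe set therefore gave no level that could check the label EVI1, and whether its probes read the vector's sequence is not known here. Only EGFP replicate 2 read above that background, at 7.53. Mecom was not called with all arrays (-0.60, limma adjusted p = 0.166) or as the mean over its probe sets (-0.42, adjusted p = 0.110). Without EGFP replicate 1 it was called lower in EVI1 (-0.87, adjusted p = 0.0306). Every direction given is that of the arrays labelled EVI1 and EGFP. All 8 measured progenitor markers lay above that background in both groups, while the B cell genes Cd79a and Ms4a1 and the natural killer genes Klrb1c and Ncr1 lay under it. The progenitor markers were lower in EVI1, with 6 of 8 falling (Cd34, Myb, Flt3, Kit, Meis1 and Cd48), and their summed log2 values were 71.2 to 72.2 in EVI1 and 78.6 to 80.0 in EGFP. Of 8 measured markers of mature blood cells 3 were above background in each group, Ly6g rose and Cd3g fell, with sums of 52.2 to 53.3 in EVI1 and 51.7 to 53.0 in EGFP. Those above it were Itgam and Cd3e in both groups, Ly6g in EVI1 alone and Cd3g in EGFP alone. Itgam, of the same list, was lower in EVI1 without passing (-1.03, limma adjusted p = 0.0792). With the replicate number as a block it passed as a fall (adjusted p = 0.00238). Of 8 markers of other tissues 7 were above background in EVI1 and 5 in EGFP, with Cdh5, Epcam and Vwf rising and sums of 63.9 to 64.1 in EVI1 and 57.4 to 57.8 in EGFP. EGFP replicate 2 stood apart: its correlation with the other EGFP arrays averaged 0.979, where the other 5 arrays had 0.983 to 0.989 within their groups, and its array weight was 0.452, where theirs were 0.874 to 1.55.

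Mitochondrial ribosomal protein genes shifted downwards in the EVI1 arrays, most of them by less than 2-fold. Of the 77 genes 21 fell, 1 rose and 55 did not pass (limma, adjusted p under 0.05 over all genes). That is 27.3% falling and 1.3% rising, where 9.18% of all genes fell and 9.06% rose. The mitochondrial ribosomal genes are brighter than most, and among the 9676 genes at least as bright as the dimmest of them 15.9% fell and 15.2% rose. The log2 difference was negative for 67 of the 77 genes (87.0%), against 49.2% of those 9676 genes, and its median was -0.29 with quartiles of -0.53 and -0.078, against a median of 0.0077. All 3 EVI1 values lay below all 3 EGFP values for 38 of the 77 genes, where this held for 16.5% of all genes and 24.6% of the equally bright ones. They lay above for 2 of the 77 genes, against 16.1% of all genes and 23.5% of the equally bright ones. In a bulk sample, fewer cells of a type that expresses these genes and less RNA per cell cannot be told apart. The part of lower progenitor markers, higher Cdh5, Epcam, Vwf and Ly6g, and lower Cd3g and Itgam in the difference was not tested.

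The count of falling genes rested on the full set of arrays, while the shift of the group did not. Without EVI1 replicate 3 the number that fell was 7 (9.09%, against 9.94% of the equally bright genes). Without EVI1 replicate 1 it was 9 (11.7%, against 12%), and without EGFP replicate 3 it was also 9 (11.7%, against 11.4%). With any of these 3 arrays left out, the share of falling genes was close to that of other bright genes. It stayed above theirs without EVI1 replicate 2 (20.8%, against 12.5%) and without EGFP replicate 1 (22.1%, against 13.2%). Without EGFP replicate 2, the array that stood apart, 23 fell (29.9%, against 17.6%) and 3 rose. The median difference stayed between -0.35 and -0.28 when each array was left out in turn. A single rising gene was called with all arrays and between 0 and 3 with each array left out.

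**Figure D1:**
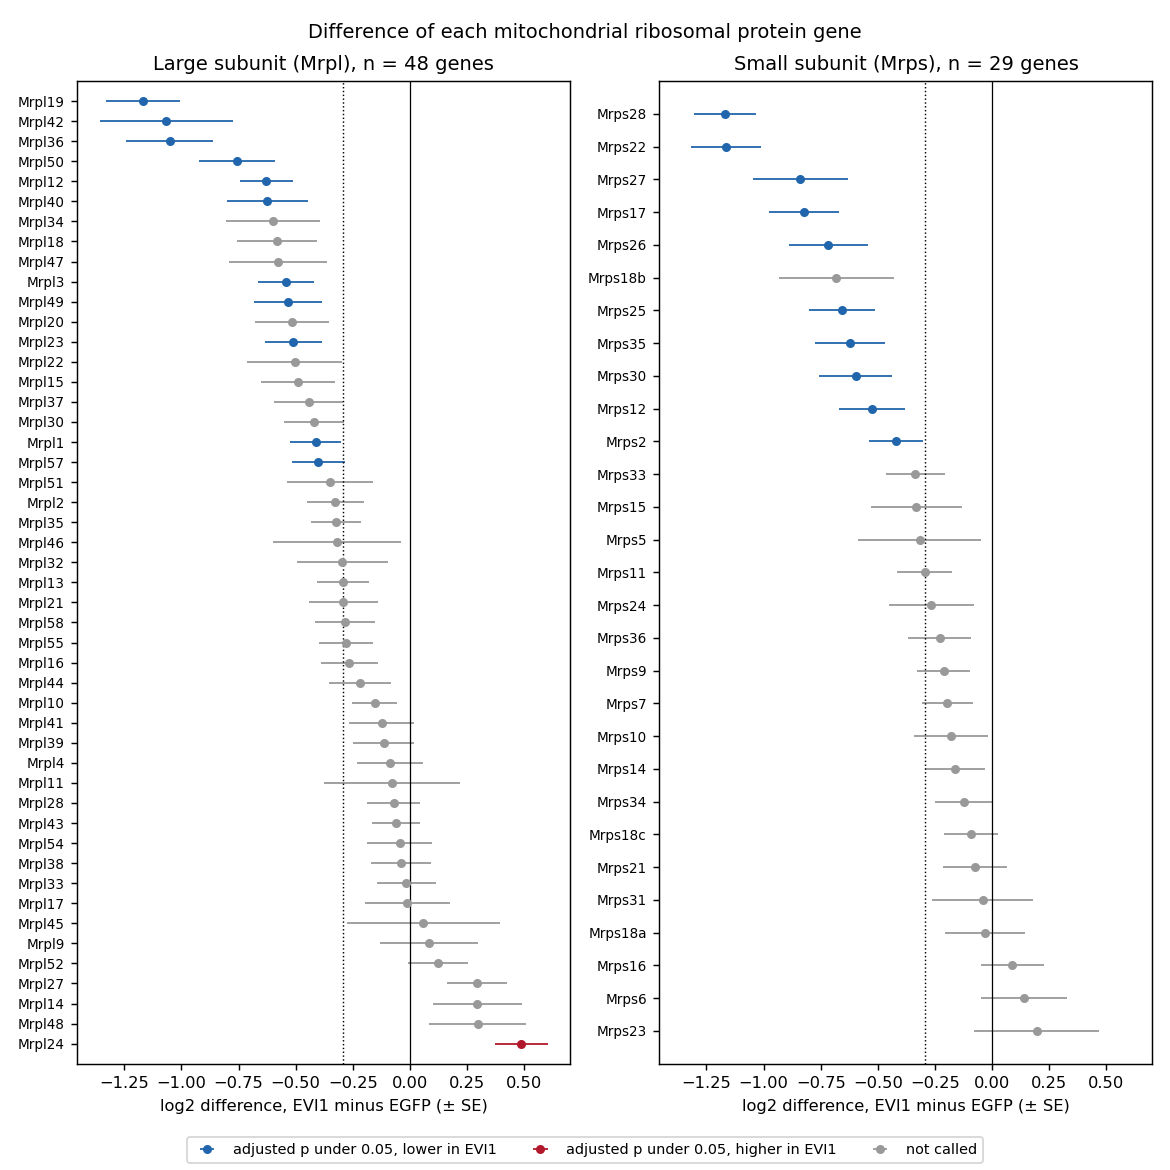
Log2 difference of each of the 77 genes, EVI1 minus EGFP, with its standard error (horizontal axis), ordered by size within the large and the small subunit. Blue genes fell, the red gene (Mrpl24) rose, grey genes did not pass at an adjusted p of 0.05, and the dotted line is the median, -0.29 in both panels.

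The medians of the large and the small subunit were nearly equal. Of 48 large subunit genes 11 fell and 1 rose (22.9% and 2.08%), and of 29 small subunit genes 10 fell and none rose (34.5% and 0%). These shares were 9.18% and 9.06% among all genes and 15.9% and 15.2% among the equally bright ones. At an unadjusted limma p under 0.05, 23 of the 48 large subunit genes had a negative difference and 1 a positive one. Among the 29 small subunit genes these counts were 13 and 0, and among the 9676 equally bright genes 2239 and 2187. The median log2 difference was -0.29 for the large and -0.29 for the small subunit, and the lower quartiles were -0.51 and -0.62. Averaged over its genes, the large subunit stood at 8.99, 9.15 and 8.92 in EVI1 replicates 1, 2 and 3 and at 9.23, 9.40 and 9.32 in the EGFP replicates. The small subunit stood at 8.84, 9.06 and 8.86 in EVI1 and at 9.19, 9.40 and 9.27 in EGFP. For both subunits all EVI1 arrays lay under all EGFP arrays, and replicate 2 was the highest of its group.

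With the replicate number as a block 17 large subunit genes fell, against 11 without it, and 11 small subunit genes, against 10. Among the equally bright genes 18.8% fell with the block, against 15.9% without it. Large subunit genes that fell numbered 4 of 48 without EVI1 replicate 1, EVI1 replicate 3 or EGFP replicate 3. Small subunit genes that fell numbered 5, 3 and 5 of 29 in these fits, where 12%, 9.94% and 11.4% of the equally bright genes fell. The large subunit share was below that of the bright genes in each fit, and the small subunit share above it. These shares rest on 3 to 5 genes each. Without EVI1 replicate 3 the small subunit share, 3 of 29, was nearly that of the bright genes (9.94%). Differences from the bright genes were not tested. The difference between the 2 medians, large minus small, was -0.00040 with all arrays but -0.11 without EVI1 replicate 1 and 0.060 with array weights. Whether the subunits differ was not tested, since genes of a complex are not replicates. Although named for the small subunit, the products of Mrps30 and Mrps18a sit in the large subunit in structures of the mammalian mitoribosome. With both moved there, 12 of 50 large and 9 of 27 small subunit genes fell. Mrps36, now known as a subunit of the oxoglutarate dehydrogenase complex, differed by -0.23 ± 0.14 and was not called, so the count of falling genes is the same without it.

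**Figure D2:**
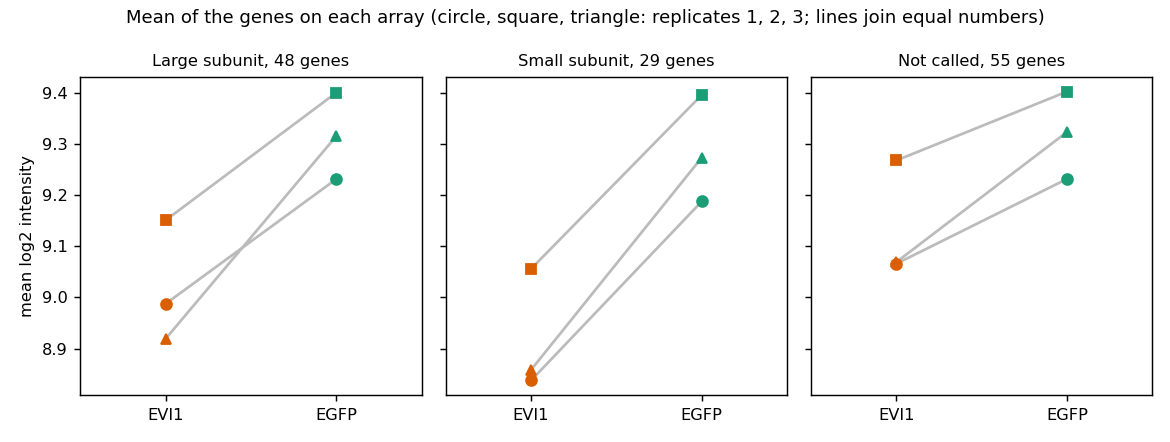
Mean log2 intensity (vertical axis) of the large subunit genes, the small subunit genes and the genes that were not called, on each EVI1 and EGFP array. Circles, squares and triangles are replicates 1, 2 and 3, grey lines join equal numbers. In both subunit panels the 3 EVI1 arrays lie under the 3 EGFP arrays, and among the genes not called EVI1 replicate 2 (9.27) lies above EGFP replicate 1 (9.23).

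The 55 genes that were not called averaged 9.07, 9.27 and 9.07 in EVI1 replicates 1, 2 and 3 and 9.23, 9.40 and 9.32 in the EGFP replicates, so each EVI1 array was below the EGFP array of its number but the groups overlapped. The genes that fell averaged 8.51, 8.64 and 8.37 in EVI1 and 9.14, 9.36 and 9.21 in EGFP, which follows from their being called. Between arrays of equal number the mean difference of all 77 genes was -0.28, -0.28 and -0.40, and 46 genes were lower in EVI1 in every such pair, against 5 higher in every pair. Among all 19937 genes 4995 (25.1%) were lower in every pair and 5295 were higher in every pair, so the 2 directions were nearly balanced there. The shares among equally bright genes were not counted. The levels also moved together within groups: EVI1 replicate 2 had the highest EVI1 value for 56 of the 77 genes, against 29.7% of all genes, and EGFP replicate 2 the highest EGFP value for 41, against 32.7% of all genes.

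Among small subunit genes Mrps28, listed as the counterpart of bacterial S1, had the smallest p. It read 7.99, 8.28 and 7.98 in EVI1, against 9.21, 9.10 and 9.44 in the EGFP arrays. The log2 difference was -1.17 ± 0.14 (SE), a 2.25-fold fall with an adjusted p of 0.000834. Mrps22, a protein with no bacterial counterpart whose inherited defects cause severe mitochondrial disease in humans, read 9.26, 9.26 and 8.86 in EVI1, against 10.41, 10.07 and 10.39 in EGFP. It fell by 1.16 ± 0.15 (adjusted p = 0.00152), with EVI1 replicate 3 the lowest of the 6 arrays. Mrps17, from the bacterial S17 family that binds ribosomal RNA, read 7.72, 7.98 and 7.72 in EVI1, against 8.48, 8.92 and 8.49 in EGFP, and fell by 0.82 ± 0.15 (adjusted p = 0.00707). In all 3 genes the groups did not overlap, and each of these calls was kept in all 14 alternatives (8 other settings and each of the 6 arrays left out).

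Mrps25, Mrps26 and Mrps35 belong to the proteins added to the small subunit in mitochondria. Mrps25 was 8.89, 8.91 and 8.89 in EVI1, against 9.55, 9.83 and 9.29 in EGFP, and fell by 0.66 ± 0.14 (adjusted p = 0.0150). The EVI1 values were nearly equal, and the call was lost only without EVI1 replicate 3, at an adjusted p of 0.0607. Mrps26 was 8.20, 8.47 and 8.21 in EVI1, against 8.76, 9.38 and 8.90 in EGFP, a fall of 0.72 ± 0.17 (adjusted p = 0.0223). Mrps35 was 8.05, 8.29 and 7.72 in EVI1, against 8.68, 8.68 and 8.56 in EGFP, a fall of 0.62 ± 0.15 (adjusted p = 0.0237). The calls of Mrps26 and Mrps35 were lost without 3 and 4 of the single arrays. The other small subunit genes that fell were Mrps27, a pentatricopeptide repeat protein (-0.84 ± 0.21), Mrps30 (-0.60 ± 0.16), Mrps12, which lies at the decoding centre (-0.53 ± 0.14), and Mrps2 (-0.42 ± 0.12).

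Among large subunit genes Mrpl19, whose bacterial counterpart lies at the interface with the small subunit, read 8.67, 8.17 and 8.37 in EVI1, against 9.44, 9.80 and 9.47 in EGFP. It fell by 1.17 ± 0.16 (adjusted p = 0.00194), and the groups stood well apart. Mrpl36, a very small zinc-binding protein of bacterial descent, read 8.60, 9.10 and 8.97 in EVI1, against 9.60, 10.24 and 9.97 in EGFP, and fell by 1.05 ± 0.19 (adjusted p = 0.00656). In both groups replicate 1 was its lowest value and replicate 2 its highest. Mrpl12, the stalk protein through which translation factors are recruited, read 8.36, 8.36 and 8.50 in EVI1, against 8.88, 9.18 and 9.05 in EGFP, and fell by 0.63 ± 0.12 (adjusted p = 0.00728). The calls of Mrpl19, Mrpl36 and Mrpl12, like those of Mrps28, Mrps22 and Mrps17, held in all 14 alternatives, and they were the only 6 of the 22 called genes to do so.

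Mrpl50, which has no bacterial counterpart, read 8.84, 9.47 and 8.96 in EVI1, against 9.77, 9.88 and 9.89 in EGFP, and fell by 0.76 ± 0.17 (adjusted p = 0.0149). Mrpl3, a core protein near the peptidyl transferase centre in bacteria, read 8.69, 8.59 and 8.44 in EVI1, against 9.14, 8.95 and 9.25 in EGFP, and fell by 0.54 ± 0.12 (adjusted p = 0.0173). Both calls were lost in several of the fits with 1 array left out. Falls of large subunit genes were also found for Mrpl42 (-1.07 ± 0.29), Mrpl40 (-0.62 ± 0.18), Mrpl49 (-0.53 ± 0.15), Mrpl23 at the exit of the peptide tunnel (-0.51 ± 0.12), Mrpl1 of the L1 stalk (-0.41 ± 0.11) and Mrpl57 (-0.40 ± 0.12). Mrpl42 was spread widely in EVI1, at 9.11, 9.39 and 8.10, against 9.93, 9.89 and 9.98 in EGFP, and its call was lost without EVI1 replicate 1, EGFP replicate 1 or EGFP replicate 3. Mrpl23 has a further probe set, which differed by -0.45 and was not called (adjusted p = 0.153 over all single-symbol probe sets).

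Mrpl24 was the single gene of the 77 that rose. Its bacterial counterpart starts the assembly of the large subunit. It read 10.36, 10.61 and 10.43 in EVI1, against 9.90, 10.11 and 9.93 in EGFP, so the groups did not overlap. It rose by 0.49 ± 0.12 (adjusted p = 0.0214). Leaving out EVI1 replicate 2 or 3 or EGFP replicate 1 or 3 ended the call, at adjusted p up to 0.0810. Mrpl27 had a higher value in EVI1 on both of its probe sets (0.29 and 0.34), with neither passing. Of the 8 genes with 2 probe sets, 7 had the same sign on both, and Mrpl51 had -0.35 on the one used and 0.088 on the other. In the small subunit the highest difference was that of Mrps23, at 8.63, 9.28 and 9.01 in EVI1, against 8.35, 9.40 and 8.58 in EGFP (0.20 ± 0.27, adjusted p = 0.752).

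**Figure D3:**
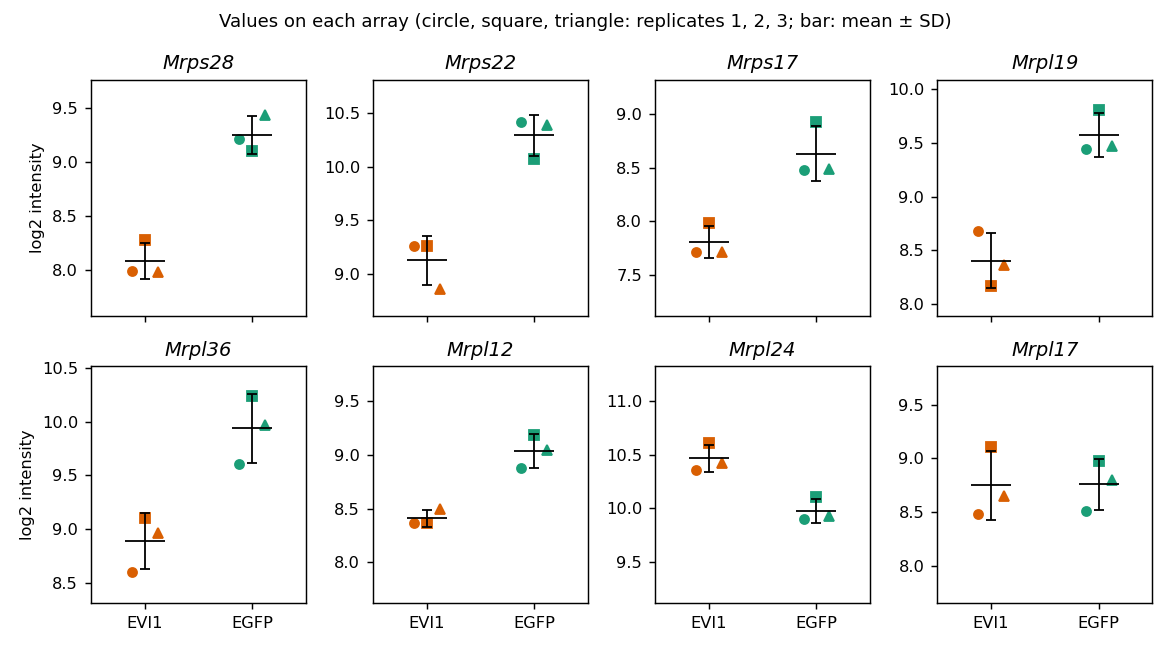
Log2 intensity (vertical axis, all panels on the same span) of 8 genes on each EVI1 and EGFP array, with mean and SD as bars. In the first 6 panels every EVI1 value lies under every EGFP value, Mrpl24 is reversed, and the groups overlap for Mrpl17.

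The 3 bright genes with the largest p did not differ beyond the spread of the arrays when all 6 were used. Mrpl17 read 8.49, 9.11 and 8.66 in EVI1, against 8.51, 8.98 and 8.80 in EGFP (-0.011 ± 0.19, adjusted p = 0.985), and the groups overlapped. Mrpl33 read 9.61, 9.47 and 9.30 in EVI1, against 9.66, 9.41 and 9.36 in EGFP (-0.016 ± 0.13, adjusted p = 0.963), with replicate 1 the highest of both groups. For Mrpl45, which docks the ribosome to the inner membrane, the values were 9.02, 9.20 and 8.78 in EVI1, against 8.44, 9.83 and 8.56 in EGFP, with EGFP replicate 2 far above the others. Its difference of 0.058 ± 0.33 had an adjusted p of 0.949. Without EGFP replicate 2 it was 0.50 and passed as a rise (adjusted p = 0.0433). The sign of all 3 differences changed in some alternatives.

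The paralogs Mrps18a, Mrps18b and Mrps18c descend from the bacterial S18 gene. Mrps18b read 8.51, 8.81 and 8.94 in EVI1, against 8.99, 10.02 and 9.29 in EGFP, and the groups did not overlap. Its difference of -0.68 ± 0.25 missed the threshold (adjusted p = 0.108), and with the replicate number as a block its adjusted p was 0.0392. EGFP replicate 2 holds its highest value, and without that array the difference was -0.39 (adjusted p = 0.144), while without EGFP replicate 1 it was -0.90 (adjusted p = 0.0401). Mrps18a, which sits in the large subunit, read 9.13, 9.56 and 9.36 in EVI1, against 9.04, 9.55 and 9.55 in EGFP (-0.032 ± 0.17, adjusted p = 0.946). Mrps18c, which takes the bacterial position, read 10.22, 10.28 and 10.02 in EVI1, against 10.38, 10.29 and 10.14 in EGFP (-0.094 ± 0.12, adjusted p = 0.717). For both of these the groups overlapped. Whether the 3 paralogs differ in response was not tested. The block also brought Mrpl18 (-0.58 ± 0.18, adjusted p = 0.0555 without and 0.00914 with the block) and Mrpl30 (-0.42 ± 0.13, adjusted p = 0.0623 and 0.0396) past the threshold, and both had all EVI1 values below all EGFP values.

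Split by whether the protein takes the place of a bacterial one, a division made after the values had been seen, 10 of 45 genes with such a counterpart fell (22.2%, median -0.29), as did 11 of 32 without one (34.4%, median -0.30). Mrps18a and Mrps18b, whose products sit elsewhere than bacterial S18, were counted among those without. In the small subunit 6 of 13 genes without a counterpart fell, with a median of -0.60, and 4 of 16 with one, with a median of -0.24. In the large subunit the counts were 5 of 19 without (median -0.28) and 6 of 29 with one (median -0.32). For comparison, 9.18% of all genes and 15.9% of the equally bright ones fell. Differences between these counts were not tested. The split was not repeated with arrays left out, where the falls among all 77 genes dropped to as few as 7.

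Lists of genes that work with the mitochondrial ribosome had negative medians as well, and that of the cytosolic ribosome had a median near 0. Of 4 measured mitoribosomal proteins that carry other names 2 fell and none rose. Ptcd3, a pentatricopeptide repeat protein of the small subunit, read 8.44, 8.31 and 8.06 in EVI1, against 9.74, 9.40 and 9.86 in EGFP, and fell by 1.40 ± 0.15 (adjusted p = 0.000715), more than any gene of the 77. Chchd1 fell by 0.73 ± 0.19 (adjusted p = 0.0292). Gadd45gip1 (-0.26 ± 0.13) and Dap3 (-0.12 ± 0.11) did not pass.

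Of 15 mitochondrial translation factors 4 fell (26.7%) and none rose, with a median of -0.23. These were Gfm1, the elongation factor that moves the ribosome along the message (-0.87 ± 0.14), Lrpprc, which stabilises mitochondrial messages (-0.60 ± 0.13), the GTPase Guf1 (-0.63 ± 0.17) and the recycling factor Mrrf (-0.40 ± 0.12). With the replicate block Oxa1l, an inner membrane insertase, also passed, as a rise (0.36 ± 0.11, adjusted p = 0.0399), and Mtrf1l passed as a fall (adjusted p = 0.0288). Of 30 measured genes of mitoribosome assembly and mitochondrial RNA handling 5 fell (16.7%) and 2 rose (6.67%), with a median of -0.20. That share of falls is close to the 15.9% of genes as bright as the mitochondrial ribosomal ones and above the 9.18% of all genes. Noa1, a GTPase needed for the small subunit, was 8.77, 8.97 and 8.73 in EVI1, against 10.06, 9.96 and 10.17 in EGFP, and fell by 1.24 ± 0.11 (adjusted p = 0.000346). The other 4 that fell were Fastkd3 (-0.93 ± 0.14), the ribosome binding factor Rbfa (-0.64 ± 0.12), Tbrg4 (-0.64 ± 0.13) and Fastkd1 (-0.88 ± 0.19). The 2 that rose act on the small subunit RNA, Eral1 as its chaperone (0.50 ± 0.12) and Mettl15 as a methyltransferase (0.88 ± 0.21). The choice of Oxa1l, Mtrf1l, Eral1, Mettl15 and Fastkd1 followed a look at their values.

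Of 19 measured mitochondrial aminoacyl-tRNA synthetases and related enzymes 3 fell (15.8%, where 15.9% of the bright genes and 9.18% of all genes fell) and none rose, with a median of -0.14. They were Nars2 (-1.02 ± 0.16), Cars2 (-0.59 ± 0.12) and Rars2 (-0.62 ± 0.14). Yars2 had a difference of -1.23 ± 0.37 that did not pass (adjusted p = 0.0531), with EGFP replicate 2 at 9.61, against 10.9 and 11.1 in the other EGFP arrays. It passed with the replicate block (adjusted p = 0.0483) and, at -1.70, without EGFP replicate 2. Of 17 genes of mitochondrial transcription and its nuclear regulators 6 fell (35.3%) and none rose, with a median of -0.41. With the block Ppargc1a, a coactivator of mitochondrial genes, also passed, as a rise (0.52 ± 0.24, adjusted p = 0.0129), and Tefm passed as a fall (adjusted p = 0.0371). Myc, a growth regulator that also drives mitochondrial genes, read 10.17, 9.10 and 9.78 in EVI1, against 11.68, 11.24 and 12.12 in EGFP (-2.0 ± 0.30). The mitochondrial tRNA processing enzymes Elac2 (-0.60 ± 0.10) and Trmt10c (-0.74 ± 0.16) fell. So did Gabpb1, a subunit of the ETS factor GABP (-0.53 ± 0.11), Pprc1, a coactivator (-0.60 ± 0.13), and Nrf1, a regulator of nuclear genes for mitochondria (-0.46 ± 0.10). The choice of Pprc1, Nrf1, Ppargc1a and Tefm followed a look at theirs.

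Of 60 cytosolic ribosomal protein genes 1 fell, Rpl12 (-1.20 ± 0.22), and none rose, with a median of 0.032. That is 1.67% falling, where 9.18% of all genes and 15.9% of the bright genes fell. By limma 3 of the 60 had an unadjusted p under 0.05, all with negative differences. Their array means were 11.4, 11.5 and 11.4 in EVI1 and 11.3, 11.5 and 11.4 in EGFP, so the groups overlapped. As a list they are far brighter, with a median gene level of 12.2 against 9.0 for the mitochondrial ribosomal genes. Yet Rpl39l, Rpl3l and Rpl10l lay under background in both groups. The part of brightness in the contrast was not tested. Rps27l (-0.51 ± 0.16), Rpl14 (-0.34 ± 0.12) and Rps7 (-0.23 ± 0.099) had the next smallest p and did not pass. Rps27l passed with the replicate block (adjusted p = 0.0458).

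**Figure D4:**
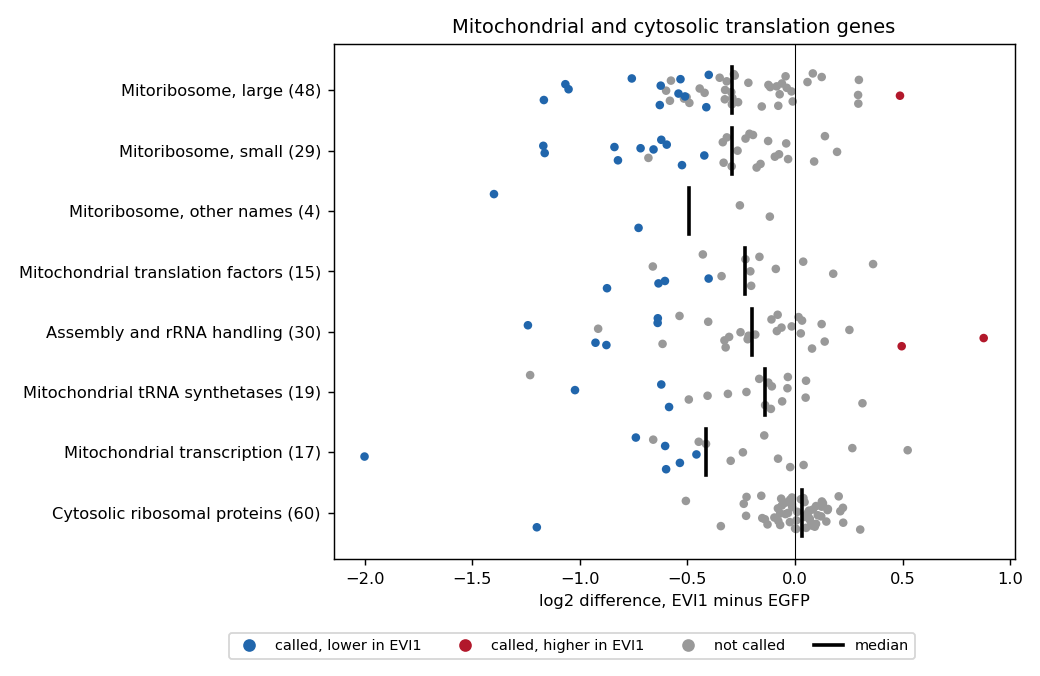
Log2 difference, EVI1 minus EGFP, of single genes (points) in 8 gene lists with the median of each list (black bar) and the number of measured genes in parentheses. The mitochondrial lists have medians between -0.49 and -0.14, and the cytosolic ribosomal proteins have one of 0.032 with a single called gene.

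The genes are scattered over 17 chromosomes, and those that fell over 13 of them. Many share a start region with a neighbour. Of the 68 with an entry in the RefSeq promoter table (GRCm38.p6), 23 (33.8%) had another measured protein-coding gene starting on the opposite strand and pointing away within 1000 bases, against 8.69% of 15004 such genes. These neighbours are described after their values were seen. In 1 arrangement, counted from both sides, they join a large and a small subunit gene, Mrpl46 and Mrps11, which differed by -0.32 and -0.29 without passing. Among the 23 neighbours 8 fell, 4 rose and 11 did not pass, where 9.18% of all genes fell and 9.06% rose. Of the genes at least as bright as the dimmest mitochondrial ribosomal gene 15.9% fell and 15.2% rose. The brightness of the neighbours was not compared with that of these genes. Mrpl46 and Mrps11 are themselves among the neighbours that did not pass. Among the neighbours that fell were the kinetochore gene Ska3 beside Mrpl57 (-1.53), the condensin gene Ncapd2 beside Mrpl51 (-0.97) and the chaperonin gene Tcp1 beside Mrpl18 (-0.84). Of the 6 neighbours of genes that fell, Hira (beside Mrpl40) and Ska3 fell, Zfp189 (beside Mrpl50) rose by 0.52, and Fau, Sars2 and Ptcd2 did not pass. A shared start region thus went with a like direction in some of these pairs and with the opposite one in others.

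The stretches of 150 bases just before the start site are shown for 4 genes that fell and for Mrpl24, to set their upstream sequences side by side, from RefSeq (GRCm38.p6) and 5′ to 3′ on the strand of the gene. They lie at chr9:98601680-98601829 on the minus strand for Mrps22, at chr5:129715347-129715496 on the plus strand for Mrps17, at chr13:73330859-73331008 on the plus strand for Mrpl36, at chr11:120484487-120484636 on the plus strand for Mrpl12 and at chr3:87919394-87919543 on the plus strand for Mrpl24. Capitals mark matches, on either strand, to the motifs named in the next paragraph.
Mrps22: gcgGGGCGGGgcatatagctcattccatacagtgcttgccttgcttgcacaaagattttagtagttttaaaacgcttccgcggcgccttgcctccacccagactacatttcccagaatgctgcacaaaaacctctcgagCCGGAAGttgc
Mrps17: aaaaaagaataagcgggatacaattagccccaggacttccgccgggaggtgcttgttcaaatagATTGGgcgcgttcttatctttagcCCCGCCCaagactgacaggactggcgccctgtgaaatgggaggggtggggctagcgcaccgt
Mrpl36: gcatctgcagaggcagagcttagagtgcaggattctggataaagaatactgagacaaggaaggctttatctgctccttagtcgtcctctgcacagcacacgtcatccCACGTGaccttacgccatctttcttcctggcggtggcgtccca
Mrpl12: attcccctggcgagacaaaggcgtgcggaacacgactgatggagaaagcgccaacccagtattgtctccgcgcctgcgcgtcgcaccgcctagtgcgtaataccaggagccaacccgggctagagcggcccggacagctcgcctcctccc
Mrpl24: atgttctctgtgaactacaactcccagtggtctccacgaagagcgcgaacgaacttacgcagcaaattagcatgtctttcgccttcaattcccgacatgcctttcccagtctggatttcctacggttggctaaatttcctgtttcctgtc

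Motifs were searched on both strands from 250 bases before to 50 after each start site, and a gene counted if any of its promoters held one. The ETS motif CCGGAAG was found in 25 of the 68 genes (36.8%), against 13.8% of measured protein-coding genes and 9.93% of all genes in the table. In the stretches shown it occurs before Mrps22. The YY1 core, spelled ATGGCGG, was found in 12 genes (17.6%, against 6.48% and 4.69%), and the NRF1 core, spelled GCATGCG, in 8 (11.8%, against 5.47% and 4.01%). The E-box CACGTG, which Myc and related factors bind, was found in 5 genes (7.35%, against 9.58% and 8.09%), Mrpl36 among them. The SP1 motif GGGCGGG was found in 29 genes (42.6%, against 40.4% and 27.9%) and the NFY motif CCAAT in 26 (38.2%, against 41.8% and 41.1%). Matches of different motifs may overlap.

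The ETS motif was found in 6 of the 18 genes that fell and 19 of the 49 that were not called. The YY1 core was in 4 of the 18 and 8 of the 49, the NRF1 core in none and 8, the E-box in 1 and 4, the SP1 motif in 9 and 20, and the NFY motif in 9 and 17. A match describes these letters only, and differences between these counts were not tested.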

How the data were processed

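The data are 6 Affymetrix Mouse Gene ST arrays of 1 colour, 3 labelled EVI1 and 3 labelled EGFP. The deposited values are log2 intensities per probe set, made by the authors with RMA (background correction, quantile normalisation, probe set summary), per the submitters' processing notes; the version is not given in the sources used here. RMA gives all arrays nearly 1 distribution, so a change of total RNA per cell would not show. Array medians were 7.24 to 7.31. Depth does not apply to arrays, whose number (3 a group) sets the precision.

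Of 34760 probe sets 21640 carried 1 symbol, 1321 several and 11799 were unnamed here. The brightest probe set by mean over the 6 arrays stood for a gene, with no filter on dim ones. Genes were compared with limma 3.58.1 (R 4.3.3, lmFit and eBayes), two-sided, with Benjamini-Hochberg adjustment over all 19937 genes, and called at 0.05; the fit was checked on simulated data. SE is that of the fit and SD that of 3 arrays. Mrpl53 shares its only probe set with another gene and was not used. RefSeq held all 77 genes, with a promoter for 68. Genes and lists were chosen with earlier results of these data known, so no list was tested as a set. Named genes were the 6 with the smallest p and the extremes of difference in each subunit, the called gene of the rarer direction, the 3 bright genes with the largest p, the Mrps18 paralogs, and up to 4 per list by p; other names were added after values were seen.

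Replicate numbers were taken to pair arrays, since arrays of equal number deviated together from the means of their groups (r over all genes 0.491, 0.269 and 0.197); the numbers come from the labels, which state no shared batch. Among the 77 genes these values were 0.619, 0.289 and -0.142. The fit without the block is the one reported. Alternatives were the block, trend and robust estimation, array weights, renormalisation, centring, the mean over probe sets, filters on dim genes and leaving out each array.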

Additional observations from a re-analysis of the deposited data

How the results depend on the processing

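The median difference of the 77 genes and those of both subunits stayed negative in all alternatives run. Each differed from its value in the fit reported by less than the spread of the array means. Between alternatives the small subunit median moved by more than its spread of 0.11. It ranged from -0.20 without EVI1 replicate 1 to -0.40 with the block and without EGFP replicate 2. Counts depended on the arrays. With each array left out in turn, falls numbered 7 to 23 and rises 0 to 3 among the 77 genes, 4 to 11 falls in the large and 3 to 12 in the small subunit, and 1110 to 2061 falls and 1179 to 2037 rises among all genes. The large minus small difference of medians ranged from -0.11 to 0.033, and that of Mecom, under background in both groups, from -0.87 to -0.30. At an adjusted p of 0.01, 6 of the 77 genes fell and 0 rose, and the share of all genes at that threshold was not counted. Array weights gave a difference of subunit medians of 0.060. With the replicate block 17 large subunit genes fell, where 18.8% of the equally bright genes fell. The block without EGFP replicate 2, added after seeing the data, gave 34 falls (20 large) and 3 rises among the 77. In that fit 44.2% of the 77 genes fell, against 13.1% of all genes and 21.7% of the equally bright ones. The difference of subunit medians was 0.064 there. Fewer arrays and a block leave few degrees of freedom.

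Differences near 0 changed sign. Leaving out each array in turn gave -0.19 to 0.12 for Mrpl17, -0.090 to 0.073 for Mrpl33, -0.19 to 0.50 for Mrpl45, -0.20 to 0.078 for Mrps18a and -0.017 to 0.51 for Mrps23. With all arrays, Mrpl17 was 0.027 and Mrpl33 0.0093 after further quantile normalisation, and Mrpl33 was 0.026 with array weights. Mecom has no value where genes under the median were left out. The cause of these changes was not tested.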
